A study of Homo sapiens with 2 samples.

Results

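The 79 rows described here are the histone genes of the deposited tables: every row whose gene name starts with HIST1H, HIST2H, HIST3H or HIST4H, together with H1F0, H1FX, H2AFV, H2AFY, H2AFZ, H3F3A and H3F3B. They were taken by name from 20263 listed genes. The 72 HIST rows are treated here as the clustered, replication-dependent genes, and the other 7 as replacement histone genes. The class was set by name. It takes in HIST4H4, which lies on chromosome 12 outside the clusters, and HIST1H1T, which encodes the H1 of the testis. Gene names are the older symbols used in the files. In them 2 rows carry the name HIST1H3D, and GENCODE release 29 gives the identifier of the second (ENSG00000282988) another gene name. That row may not be the HIST1H3D gene, and it is kept because members were taken by name.

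RNA was sequenced from Cal-27, a human squamous cell carcinoma line from the tongue, grown in DMEM with serum. Both libraries came from cells with a stably integrated shRNA vector: the control carried a scrambled shRNA, and the other was labelled as carrying an shRNA against the kinase HIPK2 (GV-248-HIPK2-sh). The labels give 1 library per group and do not say whether the transduced cells were a clone or a pool. With 1 library per group there is no test, and every difference below compares these libraries, not the conditions.

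The libraries held 28064923 and 26450251 counts over all genes. HIPK2 counts were 110 for the control and 218 for the library labelled HIPK2 shRNA, a CPM ratio of 2.01 (95% interval 1.59 to 2.55). Its deposited TPM went the other way, from 1.63 to 0.873. The counts therefore go against the label, and each direction below is drawn between libraries as labelled. CPM is each gene's counts divided by the library total and expressed per 1e6 counts, after scaling the libraries by edgeR's trimmed mean of M values (TMM), and TPM is the authors' length-corrected value. Intervals on ratios are exact and cover counting error only: the reads carry no molecular identifiers and need not be independent molecules. All 9 squamous epithelial markers examined were at 1 CPM or more, with KRT5 at 2766 and 2554 CPM. KRT14 was at 11.6 and 1.63 CPM and CDH1 at 184 and 87.3 CPM. The leukocyte markers PTPRC and CD3E and the endothelial markers PECAM1 and KDR had no counts, whereas CDH5, another endothelial marker, was at 55.2 and 27.3 CPM. In all, 2 of 6 leukocyte, 3 of 6 fibroblast and 2 of 4 endothelial markers were at 1 CPM or more. Over whole lists, the summed level was 4690 and 4053 CPM for squamous markers, 28.2 and 23.9 CPM for leukocyte, 18.2 and 21.5 CPM for fibroblast and 56.1 and 28.5 CPM for endothelial markers. The part of these marker differences in the histone values was not tested.

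Histones package DNA into nucleosomes, which are built from the core histones H2A, H2B, H3 and H4 and bound by the linker histone H1. Replication-dependent genes lie in clusters, are transcribed mainly in S phase, when DNA is copied, and make mRNAs that normally end in a conserved stem-loop in place of a poly(A) tail. The stem-loop binds the protein SLBP, which is needed for processing and translation of these mRNAs. Replacement genes lie outside the clusters, are expressed through the cell cycle and in non-dividing cells, and make ordinary polyadenylated mRNAs.

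The stem-loop is shown because it is the sequence that sets the replication-dependent class apart in textbook terms. A search of GENCODE release 29 transcript models (GRCh38) found the 16-base element in 33 of the 72 replication-dependent genes, in 0 of the 7 replacement genes and in 17 protein-coding genes outside the histone set. Each example below is given 5′ to 3′ with the stem-loop in capitals and 5 flanking bases on each side.
HIST3H2A: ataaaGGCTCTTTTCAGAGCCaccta
HIST2H2BE: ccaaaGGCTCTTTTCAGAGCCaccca
HIST1H2BD: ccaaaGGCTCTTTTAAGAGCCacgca
HIST1H3E: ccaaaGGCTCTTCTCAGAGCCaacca
HIST1H4J: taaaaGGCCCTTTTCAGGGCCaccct
HIST2H4A: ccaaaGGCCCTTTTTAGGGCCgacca
HIST1H2AG: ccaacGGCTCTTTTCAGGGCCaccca
The form shared by HIST3H2A and HIST2H2BE was found in 18 genes, the second row named HIST1H3D among them. The form of HIST1H2BD and that of HIST1H4J were each in 5 genes, and that of HIST2H4A in 3. HIST1H3E and HIST1H2AG each carried a form found in no other member. No match in a model says only that the annotated transcript does not contain these letters: many of the 39 models without it stop at the end of the coding region, among them HIST1H2BK and HIST1H1C.

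The promoters of the replication-dependent genes also differed from the bulk of promoters in the RefSeq set (GRCh38.p14, 250 bases before to 50 after the start site), where 72 members were matched. The CCAAT box (CCAAT or its reverse complement ATTGG) was in 56 of 66 replication-dependent promoters, 4 of 6 replacement promoters and 35.7% of all 27305 promoters. The letters of a TATA box (TATAAA or TTTATA) were in 44 of 66, 3 of 6 and 12.0%. Such a match could lie anywhere in the interval, and the only one of HIST1H2AE starts at -206. The octamer bound by POU2F1 (ATTTGCAT or ATGCAAAT) was in 26 of 66, 1 of 6 and 1.80%. The AAACACA element of H1 genes (AAACACA or TGTGTTT) was in 9 of 66, 0 of 6 and 5.76%. None of the 4 motifs contains another, and a match is a run of letters, not a measured binding site.

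By type, the octamer was in 14 of 18 H2B and 11 of 16 H2A promoters, and in 0 of 6 H1 and 0 of 13 H4 promoters. The 1 match among 13 H3 promoters, HIST1H3D, is the same interval as the HIST1H2AD promoter and so counts an H2A promoter again, also in the totals above. Many H2A and H2B genes start close together on opposite strands, and their promoter intervals overlap. Both strands were searched, so 1 site can count for both genes. The octamers of HIST1H2AG and HIST1H2BJ, for example, are the same bases. The counts of promoters are therefore not counts of separate sites. The AAACACA element was in all 6 clustered H1 promoters. CCAAT was in every H1, H2A, H2B and H3 promoter matched, and in 3 of 13 H4 promoters. The 130 bases just before the start site are printed for 3 replication-dependent genes with high or differing values and for 2 replacement genes, each on the minus strand and 5′ to 3′, with matches to the 4 motifs in capitals.
HIST1H1C, chr6:26056471-26056600: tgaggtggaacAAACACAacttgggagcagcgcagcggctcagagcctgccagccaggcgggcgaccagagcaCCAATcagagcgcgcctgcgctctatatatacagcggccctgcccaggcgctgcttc
HIST1H2BK, chr6:27146859-27146988: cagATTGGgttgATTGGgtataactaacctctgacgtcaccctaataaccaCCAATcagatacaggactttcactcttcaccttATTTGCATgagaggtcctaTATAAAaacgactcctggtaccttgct
HIST2H2BE, chr1:149886683-149886812: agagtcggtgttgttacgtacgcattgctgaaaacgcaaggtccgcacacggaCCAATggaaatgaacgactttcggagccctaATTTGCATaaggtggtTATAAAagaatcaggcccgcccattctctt
H1FX, chr3:129316287-129316416: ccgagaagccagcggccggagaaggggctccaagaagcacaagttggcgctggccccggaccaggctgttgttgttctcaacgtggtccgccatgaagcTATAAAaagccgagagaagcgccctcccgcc
H2AFZ, chr4:99950276-99950405: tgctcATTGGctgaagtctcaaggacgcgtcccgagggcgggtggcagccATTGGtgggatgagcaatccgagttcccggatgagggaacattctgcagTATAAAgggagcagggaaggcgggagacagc

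The replacement genes were the abundant histone transcripts in both libraries. Values below are given for the control first and the library labelled HIPK2 shRNA second. Replacement TPM summed to 1393 and 1318, against 233 and 276 for all 72 replication-dependent genes. Replacement transcripts thus stood at 5.97 and 4.78 times the summed TPM of the replication-dependent ones. In each library 6 of the 7 replacement genes were above 100 TPM, and no replication-dependent gene was. Among replication-dependent genes, 34 and 32 reached 1 TPM, and 2 and 5 reached 10 TPM. Together the 72 genes took 0.00956% and 0.0116% of all counts.

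The share of transcripts that came from replication-dependent genes also varied by histone type. They made up 16.1% and 20.0% of H1 TPM, 4.85% and 6.35% of H2A TPM and 3.70% and 5.03% of H3 TPM. No H2B or H4 gene is among the 7 replacement genes, so no such share exists for those types. The sources used here do not say how RNA was selected before sequencing, and the part of that step in the low level of the stem-loop class was not tested.

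**Figure D1:**
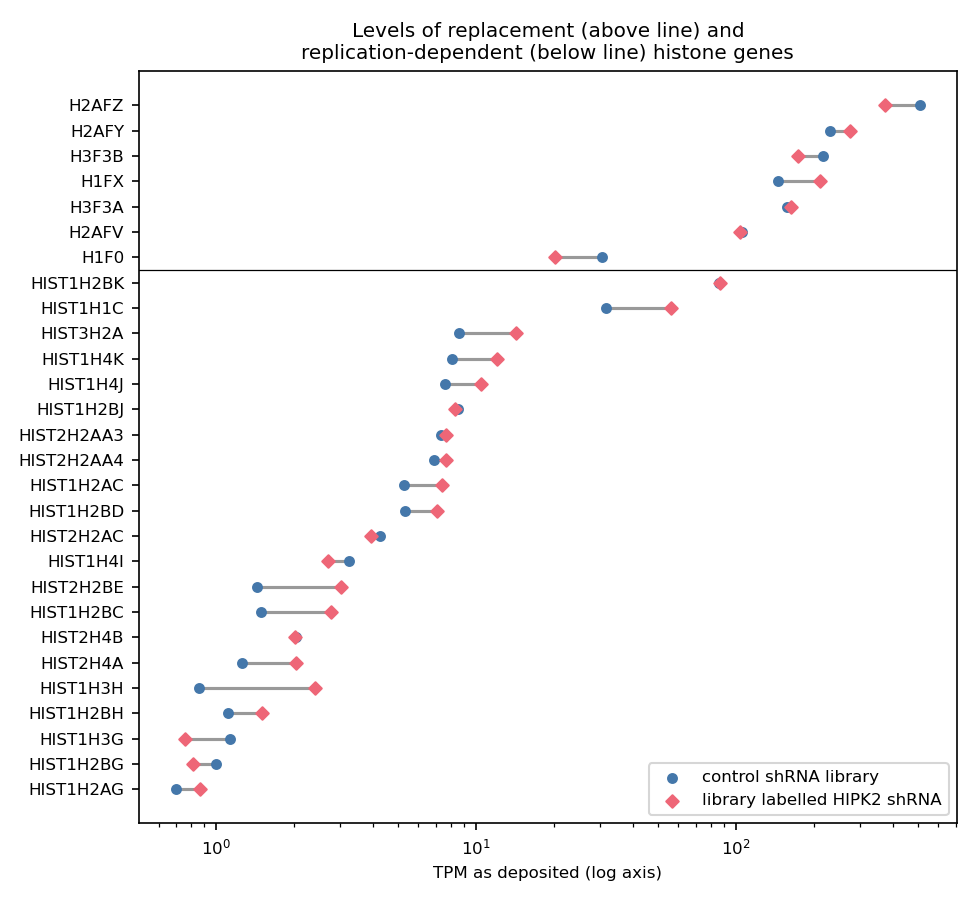
Deposited TPM (log axis) of the 7 replacement genes and of the 21 replication-dependent genes that reached 1 CPM in either library, with a circle for the control shRNA and a diamond for the library labelled HIPK2 shRNA. Every replacement gene except H1F0 lies above 100 TPM, and HIST1H2BK and HIST1H1C lead the replication-dependent genes.

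Between the libraries, the summed level of the replication-dependent genes was higher in the one labelled HIPK2 shRNA, and that of the replacement genes lower. The 72 genes had 2682 and 3081 counts, or 97.8 and 113.9 CPM, a ratio of 1.16 (95% interval 1.11 to 1.23). The 7 replacement genes had 38254 and 34365 counts, or 1394 and 1270 CPM, a ratio of 0.911 (0.898 to 0.924). That lower sum came mainly from H2AFZ (9751 and 6569 counts) and H3F3B (8640 and 6156). Of the 7 genes 4 were lower and 3 higher, with H1FX (4301 and 5748 counts) and H2AFY (8373 and 9326) among the higher. For every 100 replacement counts there were 7.01 replication-dependent counts (control) and 8.97 (HIPK2 shRNA label), a ratio of ratios of 1.28 (1.21 to 1.35) that does not depend on the scaling. Without the members that overlap another listed gene, H3F3B among them, the ratio of ratios was 1.21. These intervals hold no spread between cultures. In RNA from a whole culture, a different share of cells in S phase and a different amount of histone RNA per cell cannot be told apart.

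The difference between the classes was not uniform across histone types. Clustered H1 genes summed to 431 and 672 counts, a CPM ratio of 1.58 (1.40 to 1.79). Clustered H2A genes had 624 and 745 counts, a ratio of 1.21 (1.09 to 1.35). The H1 and H2A sums were both higher in the library labelled HIPK2 shRNA by more than counting error. The H2A difference came wholly from HIST3H2A (152 and 231 counts) and HIST1H2AC (168 and 220 counts). H2B, at 1036 and 1049 counts, had a ratio of 1.03 (0.941 to 1.12), H3, at 210 and 245, a ratio of 1.18 (0.980 to 1.43), and H4, at 381 and 370, a ratio of 0.984 (0.851 to 1.14). For these last 3 types the interval includes equal levels. Without the linker genes, the ratio for the core genes was 1.08.

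By chromosomal cluster, the 56 HIST1 genes on chromosome 6 had a summed CPM ratio of 1.15 (1.08 to 1.22) and the 12 HIST2 genes on chromosome 1 a ratio of 1.17 (1.02 to 1.35). The HIST2 difference came almost wholly from HIST2H2BE (62 and 121 counts). The 3 HIST3 genes, also on chromosome 1, had a ratio of 1.55 (1.26 to 1.92), which came almost wholly from HIST3H2A. HIST1H1C and HIST1H2BK together held 38.8% and 40.5% of replication-dependent counts. Without that pair the ratio was 1.13 (1.06 to 1.21). The pair joins genes of unlike ratio, HIST1H1C at 1.67 and HIST1H2BK at 0.938, so the value of 1.13 does not show the part of HIST1H1C. Without the clustered H1 genes, nearly all of whose counts are HIST1H1C, the ratio was 1.08.

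**Figure D2:**
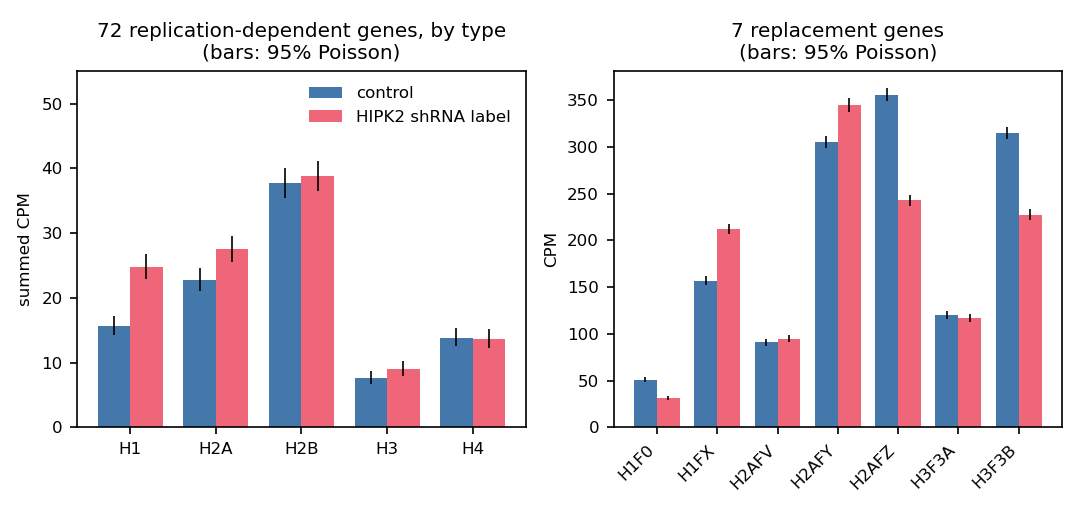
Left, summed CPM of the replication-dependent genes by histone type in the control and in the library labelled HIPK2 shRNA; right, CPM of each replacement gene, with 95% Poisson bars in both panels. The H1 and H2A sums stand higher in the library labelled HIPK2 shRNA, and H2AFZ, H3F3B and H1F0 stand lower.

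Gene by gene, only a minority of the clustered genes could be compared. A level of 1 CPM in either library was reached by 21 of 72 replication-dependent genes and all 7 replacement genes. Of the 21, 18 passed in both libraries, HIST1H2BC and HIST1H3H passed only in the library labelled HIPK2 shRNA, and HIST1H2BG only in the control. These 21 were 1 of 6 H1, 6 of 17 H2A, 7 of 18 H2B, 2 of 16 H3 and 5 of 15 H4 genes. Differences are log2 ratios of CPM + 1, which understate the change of genes near 1 CPM.

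On that scale none of these 21 and 7 genes passed 2-fold in either direction. Of the 11813 expressed genes 6.13% did, 3.26% in the higher direction and 2.87% in the lower. Only 2 of the 21 reached 10 CPM, and these shares were not matched for level. Of the 21 replication-dependent genes 14 were higher and 7 lower in the library labelled HIPK2 shRNA, with a median log2 ratio of 0.20 and a range of -0.40 to 0.76. That median was 0.29 with a pseudocount of 0.1 CPM, 0.08 with 5 CPM, 0.13 over the 41 genes at 1 TPM or more on the TPM scale, and 0.0 over all 72 genes with no filter. Of the 7 replacement genes 3 were higher and 4 lower, with a median of -0.04 and a range of -0.69 to 0.44. The sign of that median turned with upper-quartile factors (0.031), with total counts (0.025) and without H3F3B (0.008). Over all expressed genes 50.0% were higher and 50.0% lower. At 1.5-fold, 3 replication-dependent genes were higher and none lower, against 10.6% and 9.96% of expressed genes. Those 3, HIST1H1C, HIST2H2BE and HIST1H3H, were 14.3% of the 21, and H1F0 was the 1 replacement gene past 1.5-fold, in the lower direction.

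**Figure D3:**
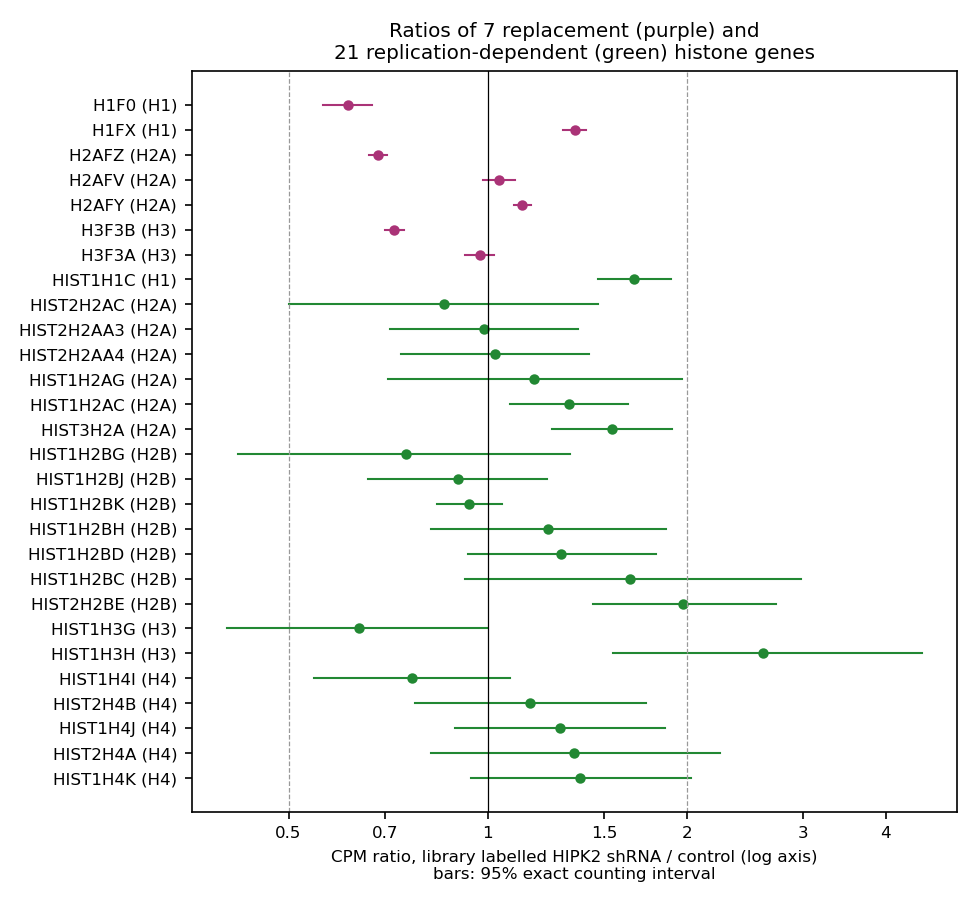
CPM ratio of the library labelled HIPK2 shRNA to the control (log axis) for the 7 replacement and 21 replication-dependent histone genes at 1 CPM or more, with 95% exact counting intervals. The intervals of H1F0, H2AFZ, H3F3B and HIST1H3G lie below a ratio of 1, those of H1FX, H2AFY, HIST1H1C, HIST3H2A, HIST1H2AC, HIST2H2BE and HIST1H3H lie above it, and the rest include it.

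The linker histone genes differed from one another in direction. H1F0 (chr22:37805093-37807436, plus strand), which encodes the H1 variant that accumulates in differentiated and non-dividing cells, had 1403 and 850 counts. CPM was 51.1 and 31.4, or 1.63-fold lower (1.49 to 1.78) for the shRNA label, with TPM of 30.5 and 20.0. H1FX (chr3:129314771-129316277, minus strand), which encodes another replacement H1, had 4301 and 5748 counts. CPM was 157 and 212, a ratio of 1.35 (1.30 to 1.41), with TPM of 145 and 211. H1F0 and H1FX, the pair of replacement H1 genes, thus lay on opposite sides of equality in CPM and in TPM.

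HIST1H1C (chr6:26055787-26056428, minus strand), a clustered H1 gene, had 397 and 653 counts. CPM was 14.5 and 24.1, a ratio of 1.67 (1.47 to 1.89), with TPM of 31.5 and 56.3. It supplied 92.1% (89.2 to 94.5, exact binomial) and 97.2% (95.6 to 98.3) of clustered H1 counts, so the H1 sum is in effect this gene. The other 5 clustered H1 genes (HIST1H1A, HIST1H1B, HIST1H1D, HIST1H1E and HIST1H1T) had at most 15 counts in either library. HIST1H1T encodes the H1 of the testis.

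The make-up of the H1 counts therefore differed between the libraries. H1F0 took 22.9% (21.8 to 23.9) of all H1 counts in the control and 11.7% (11.0 to 12.5) in the library labelled HIPK2 shRNA. These shares are of counts and are not corrected for transcript length. In TPM, H1F0 stood at 30.5 and 20.0, beside 210 and 289 for all H1 genes. All H1 genes together had 6135 and 7270 counts, a CPM ratio of 1.20 (1.16 to 1.24).

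The replacement H2A genes included the highest histone level in these libraries. H2AFZ (chr4:99948088-99950388, minus strand), which encodes the variant H2A.Z found around transcription start sites, was the top histone gene by TPM, at 509 and 373. Its 9751 and 6569 counts gave 355 and 243 CPM, or 1.46-fold lower (1.42 to 1.51) under the HIPK2 shRNA label. H2AFV (chr7:44826791-44848083, minus strand), which encodes a close relative of the same variant, had 2497 and 2561 counts, or 91.0 and 94.6 CPM. Its ratio of 1.04 (0.984 to 1.10) includes equality, and its sign turned in TPM (105 and 104).

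Summed over H2AFZ and H2AFV, counts were 12248 and 9130, a CPM ratio of 0.756 (0.735 to 0.777), and H2AFZ supplied 79.6% and 71.9% of them. H2AFY (chr5:135333900-135399887, minus strand), which encodes macroH2A with its large non-histone domain, had 8373 and 9326 counts. CPM was 305 and 345, a ratio of 1.13 (1.10 to 1.16), with TPM of 229 and 274. H2AFZ was therefore the only replacement H2A gene of the 3 with a lower level in the library labelled HIPK2 shRNA in both CPM and TPM.

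H3F3A and H3F3B encode the same replacement H3 protein from separate genes, and their values differed. H3F3B (chr17:75776434-75785486, minus strand) had 8640 and 6156 counts, or 315 and 227 CPM, 1.38-fold lower (1.34 to 1.43), with TPM of 216 and 173. Its interval overlaps that of UNK in the files, so part of its reads could belong to that gene. H3F3A (chr1:226061851-226072001, plus strand) had 3289 and 3155 counts, or 120 and 117 CPM, a ratio of 0.972 (0.926 to 1.02), with TPM of 157 and 163. The sign for H3F3A turned under upper-quartile scaling, total-count scaling and TPM. Together the pair had 11929 and 9311 counts, a ratio of 0.791 (0.770 to 0.813), and H3F3B supplied 72.4% and 66.1% of them.

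HIST1H2BK (chr6:27146418-27146798, minus strand) was the highest replication-dependent gene by TPM, at 86.0 and 86.5. It had 643 and 595 counts, or 23.4 and 22.0 CPM, a ratio of 0.938 (0.838 to 1.05) that includes equality. By TPM it ranked 1539 and 1556 among all listed genes, where H2AFZ ranked 260 and 352 and HIST1H1C 3134 and 2166. HIST1H2BJ (chr6:27125897-27132750, minus strand) had 90 and 80 counts, with TPM of 8.50 and 8.32. For both of these H2B genes the counting interval of the ratio includes equality.

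HIST2H2BE (chr1:149884459-149886652, minus strand), a clustered H2B gene, had 62 and 121 counts. The CPM ratio was 1.98 (1.45 to 2.73), with TPM of 1.44 and 3.03. HIST1H2BD had 69 and 88 counts, HIST1H2BH 46 and 56 and HIST1H2BC 21 and 34, each higher in the library labelled HIPK2 shRNA with an interval that includes equality. HIST1H2BG, at 31 and 23 counts, was lower, again with an interval that includes equality (0.419 to 1.33).

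Among clustered H2A genes, HIST3H2A (chr1:228456979-228457873, minus strand) had 152 and 231 counts, or 5.54 and 8.54 CPM. The ratio was 1.54 (1.25 to 1.90), with TPM of 8.60 and 14.3. HIST1H2AC (chr6:26124145-26139116, plus strand) had 168 and 220 counts, a ratio of 1.33 (1.08 to 1.63), with TPM of 5.26 and 7.37. Among the 6 clustered H2A genes at 1 CPM or more, only these had counting intervals that left out equality. HIST2H2AA3 and HIST2H2AA4 are near-identical copies on chromosome 1, with 79 and 77 counts for the first and 77 and 78 for the second. Reads cannot be assigned to one copy with certainty, and the pair summed to 156 and 155 counts, a ratio of 1.01. HIST1H2AG had 31 and 36 counts and HIST2H2AC 33 and 28.

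Clustered H3 genes were low, and the 2 at 1 CPM or more differed in direction. HIST1H3H (chr6:27810064-27811300, plus strand) had 21 and 54 counts, a CPM ratio of 2.61 (1.55 to 4.54), with a log2 ratio of 0.76 on the CPM + 1 scale. HIST1H3G (chr6:26269405-26271815, minus strand) had 54 and 34 counts, a ratio of 0.638 (0.403 to 0.998). HIST2H3A and HIST2H3C share all their 150-base windows and are read here as a pair, with 32 and 26 counts in all.

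The 5 H4 genes at 1 CPM or more had counting intervals that include equality when taken singly. HIST1H4J (chr6:27824108-27824480, plus strand) had 56 and 71 counts with TPM of 7.59 and 10.4, and HIST1H4K (chr6:27831216-27831527, minus strand) had 50 and 68 with TPM of 8.07 and 12.0. Both share at least 50% of their 150-base windows with another gene's transcript, so each is uncertain on its own. The pair summed to 106 and 139 counts, a ratio of 1.33 (1.03 to 1.73). The sources used here do not say how reads that match both copies were counted. If such reads were counted for each copy, this interval is too narrow. HIST2H4A and HIST2H4B, likewise near copies, summed to 79 and 96, a ratio of 1.23. HIST1H4I had 83 and 63 counts, the 1 H4 gene of the 5 with a lower level in the library labelled HIPK2 shRNA.

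The remaining 51 replication-dependent genes were under 1 CPM in both libraries, with at most 26 counts. No count was seen in either library for 8 of them: HIST1H2AA, HIST1H2AK, HIST1H2BA, HIST1H2BM, HIST2H3PS2, HIST3H3, HIST1H4F and HIST1H4G. A count of 0 allows a level of up to 0.109 CPM for the control and 0.111 CPM for the second library. A further 6 had no count in 1 library only. Of the 51, 18 were higher and 25 lower in the library labelled HIPK2 shRNA.

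In sum the low genes went the opposite way to the 21 above 1 CPM. They had 440 and 375 counts, a ratio of 0.864 (0.751 to 0.994), whereas the 21 had 2242 and 2706, a ratio of 1.22 (1.16 to 1.29). Because a gene could pass through the library where it was high, both ratios are descriptions of genes so chosen. HIST1H2BC (21 and 34 counts) and HIST1H3H (21 and 54) left the low set only through the library labelled HIPK2 shRNA. HIST1H2BG (31 and 23 counts) left it only through the control. The part of this filter in the opposite directions was not tested. The 3 low genes named next were picked after their values were seen. HIST1H3I had 19 and 2 counts, 9.37-fold lower (2.26 to 83.0). HIST4H4 on chromosome 12 had 26 and 8, 3.21-fold lower (1.41 to 8.19). The second row named HIST1H3D (ENSG00000282988, chr6:26195595-26199293) had 5 and 24 counts, and it overlaps other listed histone genes.

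Many H2A and H2B genes are arranged head to head around a shared promoter, and 11 such pairs had 5′ ends within 500 bases of each other, 219 to 331 bases apart. HIST1H2BC and HIST1H2AC, 219 bases apart, had log2 ratios of 0.35 and 0.36. HIST2H2BE and HIST2H2AC, 323 bases apart, had 0.75 and -0.11. HIST1H2BJ and HIST1H2AG had -0.11 and 0.13. Of the pairs just named, HIST1H2BC and HIST1H2AC thus had like values. In the HIST2H2BE and HIST1H2BJ pairs the partners had opposite signs, with HIST2H2BE alone having an interval that leaves out equality. This does not hold for every pair of the 11, since some had partners of the same sign.

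Levels within a pair could also be far apart. HIST1H2BK stood at 86.0 and 86.5 TPM while its partner HIST1H2AH, 331 bases away, stood at 1.71 and 0.570 TPM. HIST3H2A stood at 8.60 and 14.3 TPM while HIST3H2BB, 234 bases away, had 0 and 2 counts. HIST1H2AA and HIST1H2BA had no counts in either library. The other pairs had at most 31 counts for either gene.

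The annotated transcript ends offered another way to split the clustered genes, drawn up after the values were seen. In 24 genes a model ran on for at least 100 bases past the stem-loop, in 9 it ended near the stem-loop, and in 39 no stem-loop was in the model. The summed counts were 900 and 1098, 319 and 354, and 1463 and 1629 in that order. Their CPM ratios were 1.24 (1.13 to 1.35), 1.12 (0.964 to 1.31) and 1.13 (1.05 to 1.21), and these intervals overlap. Of the 21 genes at 1 CPM or more, 12 had a model that ran on, including HIST1H2AC, HIST3H2A, HIST2H2BE and HIST1H3H.

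Genes that act on histone mRNAs lay on both sides of equality. All 24 genes of histone mRNA processing and decay were at 1 CPM or more, 13 higher and 11 lower in the library labelled HIPK2 shRNA, none past 2-fold, with a median log2 ratio of 0.02. SLBP, the stem-loop binding protein, was at 35.2 and 29.8 CPM, 1.18-fold lower (1.07 to 1.30), with TPM of 30.6 and 29.9. LSM1, part of the ring that promotes decay of mRNAs, had a log2 ratio of -0.72. SNRPD3, a core protein of small nuclear ribonucleoproteins, had -0.59, and SYMPK, the scaffold of the cleavage complex, had 0.48.

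Of 15 genes of histone gene transcription 8 were higher and 7 lower, with a median of 0.06. CCNE2, a cyclin that drives entry into S phase, was the 1 past 2-fold, with 41 and 110 counts and a ratio of 2.72 (1.88 to 3.99). Its log2 ratio of 1.02 was 0.72 on the TPM scale, and 0.48 when 5 CPM was the pseudocount, neither past 2-fold. NPAT, the coactivator of clustered histone genes, had 26 and 38 counts, a ratio of 1.48 (0.876 to 2.54) that includes equality. NFYA, a subunit of the factor that binds CCAAT boxes, had a log2 ratio of 0.50 and the retinoblastoma gene RB1 0.49.

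Of 26 histone chaperone and exchange genes 16 were higher and 10 lower, with a median of 0.09. HJURP, the chaperone of the centromeric H3 variant, was 2.89-fold lower (2.55 to 3.28) and the 1 past 2-fold. In TPM its log2 ratio was -0.93, short of 2-fold. SRCAP, the ATPase of a complex that deposits H2A.Z, was 1.76-fold higher (1.68 to 1.86), while H2AFZ itself was lower. In TPM SRCAP was just past 2-fold higher. UBN2 had a log2 ratio of 0.84, against 0.27 on the TPM scale, and 0.41 when 5 CPM was the pseudocount. The replication-coupled chaperone genes CHAF1A and CHAF1B had -0.19 and -0.38 (-0.07 and -0.28 in TPM), and HIRA, the chaperone for the replacement H3 protein, had 0.05.

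Outside the 79 rows, 3 further histone variant genes were at 1 CPM or more, of 12 found in the files. H2AFX, the variant phosphorylated at DNA breaks, was at 174 and 201 CPM, a ratio of 1.15 (1.11 to 1.20). H2AFJ had a ratio of 1.13 (1.03 to 1.25), and CENPA, the centromeric H3 variant, was at 17.1 and 17.2 CPM.

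The S-phase genes are given beside the clustered histones because both are expressed with DNA replication. Of 21 S-phase genes 7 were higher and 14 lower in the library labelled HIPK2 shRNA, with a median log2 ratio of -0.23, where the replication-dependent histones had 0.20. In TPM those medians were -0.09 and 0.24, beside 0.08 over all expressed genes. GINS4, a subunit of the replicative helicase complex, was the 1 past 2-fold, 3.56-fold lower (2.88 to 4.44). CDC6, which loads the helicase, had -0.79 and GINS3 -0.60. The part of any difference in S-phase content in the histone values was not tested.

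**Figure D4:**
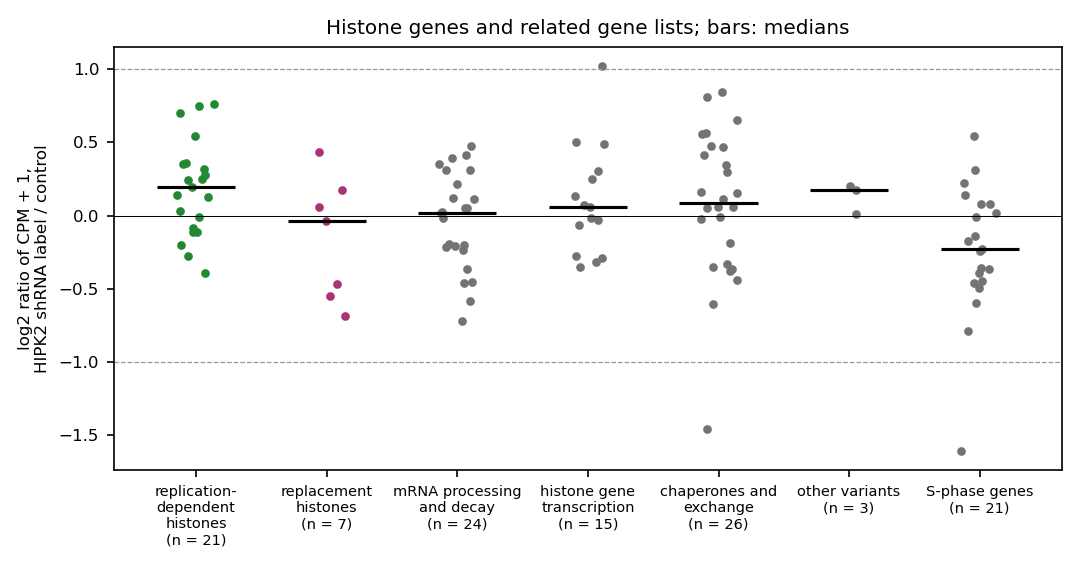
Log2 ratio of CPM + 1 (library labelled HIPK2 shRNA over control) for each gene at 1 CPM or more in the histone classes and the related lists, with horizontal bars at the medians. The replication-dependent histones have a median of 0.20, the replacement histones -0.04 and the S-phase genes -0.23.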

How the data were processed

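Per the labels' protocols, RNA of 2 Cal-27 libraries was read on an Illumina HiSeq (150 bp, both ends). FastQC and TopHat2 2.1.1 and the build GRCh38 are named in the submitters' processing notes. The sources used here do not give the counting tool, its strand setting or its treatment of reads that match several genes. The authors deposited, for each gene, a count, a TPM and an FPKM; FPKM entered no comparison. Total counts were 28064923 and 26450251.

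Counts were scaled with TMM factors (edgeR 4.0.16, R 4.3.3) to CPM, and log2 ratios used a pseudocount of 1 CPM. A gene was called expressed from 1 CPM in either library. Being past 2-fold is a rule of size, since 1 library per group allows no test. Ratio intervals (95%) are Clopper-Pearson limits conditional on the summed count (scipy 1.17.1). A count of 0 allows up to 3 counts. The ratio and interval code was tested on simulated data.

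Genes were named by this rule: the 7 replacement genes, the 8 replication-dependent genes with most TPM, any replication-dependent gene past 2-fold at 5 CPM, the highest and lowest ratio of each histone type at 5 CPM, and, in each related list, 3 genes with the largest ratio, besides SLBP, NPAT, CHAF1A, CHAF1B, HIRA and HIPK2. Other members were named after their values were seen. One marker gene is not reported here. The members and lists were chosen with earlier results of these data known. Stem-loops were searched in GENCODE release 29 transcripts, and promoters in RefSeq sequences of GRCh38.p14. Alternatives were DESeq2 1.42.0, upper-quartile and total-count scaling, deposited TPM, pseudocounts of 0.1 and 5 CPM, no filter or 10 CPM, a 1.5-fold threshold, core genes only, and leaving out genes that overlap another listed gene.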

Additional observations from a re-analysis of the deposited data

How the results depend on the processing

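Of 56 alternative values for the class summaries, 46 were counted as staying within the spread allowed for them and 10 as moved. Some of the 46 could not move. The ratio of ratios does not depend on the scaling, and all 7 replacement genes passed the 10 CPM filter. The tally is therefore not a measure of how stable the summaries are. The summed ratio of replacement genes (0.911) was 0.957 with upper-quartile factors, 0.953 with total counts, 0.946 in TPM and 0.966 without H3F3B, the member overlapping another gene. Their median log2 ratio (-0.04) was 0.031 with upper-quartile factors, 0.025 with total counts and 0.008 without H3F3B, so its sign depends on these choices. The median of replication-dependent genes (0.20) ran from 0.0 with no filter to 0.31 over the 2 genes at 10 CPM. Both of these values were counted among the 46. The summed ratio of replication-dependent genes was 1.08 for core genes only. The ratio of ratios was 1.21 without the 13 overlapping members. Past 2-fold, 1 replication-dependent gene was higher with a pseudocount of 0.1 CPM (HIST1H3H), 3 were higher at 1.5-fold, and 1 was lower in TPM (HIST1H3I, of 41 genes then tested). Among expressed members, 5 changed sign in TPM: H2AFV, H3F3A, HIST2H2AA3, HIST1H2BK and HIST2H4B. The cause of these shifts was not tested. Of 216 alternative values for single genes, 180 stayed close and 36 moved. No paired analysis was possible because there is 1 library to a group, and for the same reason no replicate could be left out. At this depth the 51 replication-dependent genes under 1 CPM had at most 26 counts each, so their ratios are imprecise.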
